A study of Mus musculus with 10 samples.

Results

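Brown adipocytes were kept with BML-260, a small molecule marketed for blocking the phosphatase Dusp22, for 3 days or for 1 day, and the contrast described here is the effect of the compound at 3 days minus its effect at 1 day. An effect is the log2 fold change of BML-260 against DMSO, the solvent, at the same time. The contrast uses 8 of 10 RNA sequencing libraries: 2 of BML-260 for 3 days, 2 of DMSO for 3 days, 2 of BML-260 for 1 day and 2 of DMSO for 1 day. All of them are of brown adipocytes from C57BL/6 mice, per the labels, which give no dose. The other 2 libraries, labelled ISO and 1 day, entered the filter, the scaling and the estimate of the spread and no contrast. The labels do not say whether the 2 libraries of a group came from separate cultures, so the p-values rest on a spread that may be technical. Of 24640 gene symbols in the table of counts, 15212 passed a filter on low counts, and all of these were tested. Every tested gene is a member of the contrast.

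Brown adipocytes oxidize lipid and release the energy as heat, through the uncoupling protein Ucp1 in the inner mitochondrial membrane. Noradrenaline reaches them through the beta-3 adrenergic receptor, which raises cyclic AMP, sets lipolysis going and induces thermogenic genes. Their fat cell character is kept by the transcription factors Pparg and Cebpa, which maintain adipokines, lipid droplet proteins and enzymes of lipid handling. A gene on which the compound acts equally at both times gives a difference of 0 in this contrast, however large the effect is. A positive difference, called higher below, means that the effect was more positive or less negative at 3 days. A negative difference, called lower, means the opposite. A gene was called when its adjusted p, from edgeR's quasi-likelihood test with Benjamini-Hochberg adjustment over all tested genes, was under 0.05.

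The 8 libraries held between 17094354 and 20039083 counts. Adipocyte markers were abundant in every library by their summed level in CPM (counts scaled to library size). The sum was 8152 and 7891 CPM with BML-260 at 3 days and 7993 and 7824 with DMSO at 3 days. It was 13981 and 14516 CPM with BML-260 at 1 day and 10806 and 10713 with DMSO at 1 day. Most of each sum was Fabp4, which had at least 4520 CPM in each of the 8 libraries and was higher with BML-260 at both times. Adipoq, Cfd and Pparg, also in the sum, were lower with BML-260 at both times. The sums therefore do not show how the markers other than Fabp4 moved. Of 6 macrophage markers 4 were in the table and summed to at most 7.23 CPM, those of endothelium to at most 1.42 CPM and those of skeletal muscle to at most 1.42 CPM. No marker found in the table was at 0 in all 8 libraries. Ptprc, Myod1 and Myog were not analysed here. Preadipocyte and fibroblast markers summed to 143 and 143 CPM with BML-260 at 3 days against 207 and 226 with DMSO at 3 days. At 1 day they summed to 100.3 and 95.3 CPM with BML-260 against 125 and 136 with DMSO. Smooth muscle and pericyte markers summed to 209 and 184 CPM with BML-260 at 3 days against 348 and 359 with DMSO at 3 days. The values at 1 day were 212 and 223 CPM with BML-260 against 319 and 318 with DMSO. The preadipocyte and smooth muscle sums moved with the treatment at both times, and their part in the results was not tested. In bulk RNA fewer cells of a type and less RNA per cell cannot be told apart.

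One of the libraries of each treatment at 1 day stood apart by the base composition of its transcripts. In the decile of genes with the highest GC content, the median log2 CPM relative to each gene's mean was -0.09 in BML-260 1 day replicate 1 and 0.11 in DMSO 1 day replicate 2, while the other 6 of the 8 libraries lay between -0.04 and 0.02. Calls in the contrast followed the same axis. Of 1373 genes in the highest decile, 161 were called higher and 21 lower, and of 1373 in the lowest decile, 18 were called higher and 102 lower. Most gene groups below are therefore given with further counts, chosen after seeing this: from a fit that corrects each library for GC content, and from a fit without both of these libraries, which leaves 1 library for each treatment at 1 day, assumed to vary like the other groups.

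**Figure D1:**
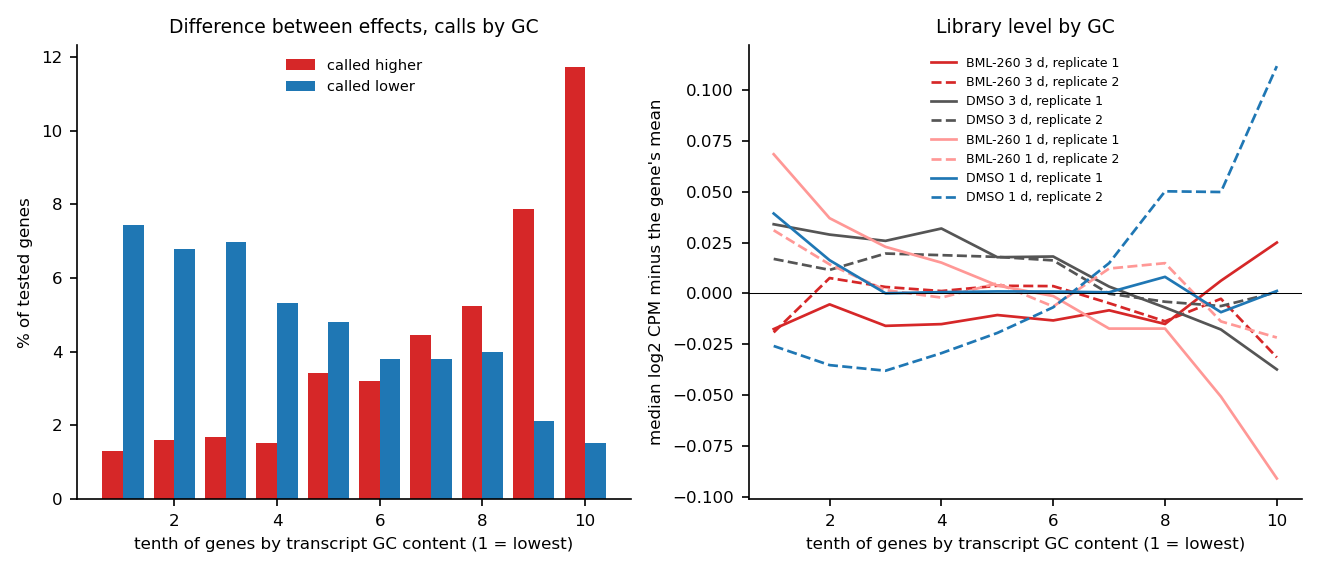
Left, the percentage of tested genes called higher (red) and lower (blue) in the difference between effects, by deciles of transcript GC content. Right, the median log2 CPM of each library relative to each gene's mean, by the same deciles; BML-260 1 day replicate 1 ends at -0.09 and DMSO 1 day replicate 2 at 0.11, outside the range of the other 6 libraries.

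The effect of BML-260 differed between the times for 1284 genes, 8.44% of those tested. Of these, 598 (3.93% of tested genes) were higher and 686 (4.51%) lower, and the median absolute difference among them was 0.37 on the log2 scale. The differences were of modest size: 68 genes passed a log2 difference of 1, of which 14 were higher and 54 lower. With BML-260 against DMSO alone, 5407 genes (35.5%) were called at 3 days and 2728 (17.9%) at 1 day. Under the GC correction 1271 genes were called, of which 1007 were among the 1284. In a fit of the 8 libraries alone 1548 genes were called, and the split turned to 926 higher and 622 lower (59.8% higher, against 46.6%). DESeq2's Wald test called 721 genes, 414 higher and 307 lower. The number of calls leaned on single libraries: 659 genes were called without DMSO 1 day replicate 2, 678 without DMSO 3 days replicate 1, 760 without BML-260 3 days replicate 1 and 794 without DMSO 3 days replicate 2, and 370 of the 1284 were called in all 8 fits that leave out 1 library.

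The 1284 genes fell into 5 patterns. The largest held 813 genes, for which the effect was called at 3 days and not at 1 day, with 382 higher and 431 lower. For 211 genes it was called at both times in 1 direction and was larger at 3 days, with 83 higher and 128 lower. For 168 genes it was called at 1 day and was smaller, or no longer called, at 3 days, with 93 higher and 75 lower. In 50 genes the effects were called in opposite directions, and in 42 genes neither effect was called alone. Being called at 3 days and not at 1 day did not by itself mean that the effects differed: of 3610 such genes, the 813 named above (22.5%) passed the test of the difference.

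Genes that BML-260 had already moved at 1 day mostly kept their direction. Of 1417 genes called higher at 1 day (9.32% of those tested), 1270 (89.6%) still had a positive effect at 3 days, with a median effect of 0.21 at 3 days and 0.24 at 1 day. The effect was called larger at 3 days for 83 of them and called smaller or turned for 103. Of 1311 genes called lower at 1 day (8.62%), 1171 (89.3%) still had a negative effect at 3 days, with a median of -0.30 at 3 days and -0.33 at 1 day. Here 128 were called larger at 3 days and 115 smaller or turned. The genes at 1 day were taken from 1 of the effects compared, so these shares describe them and were not tested.

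**Figure D2:**
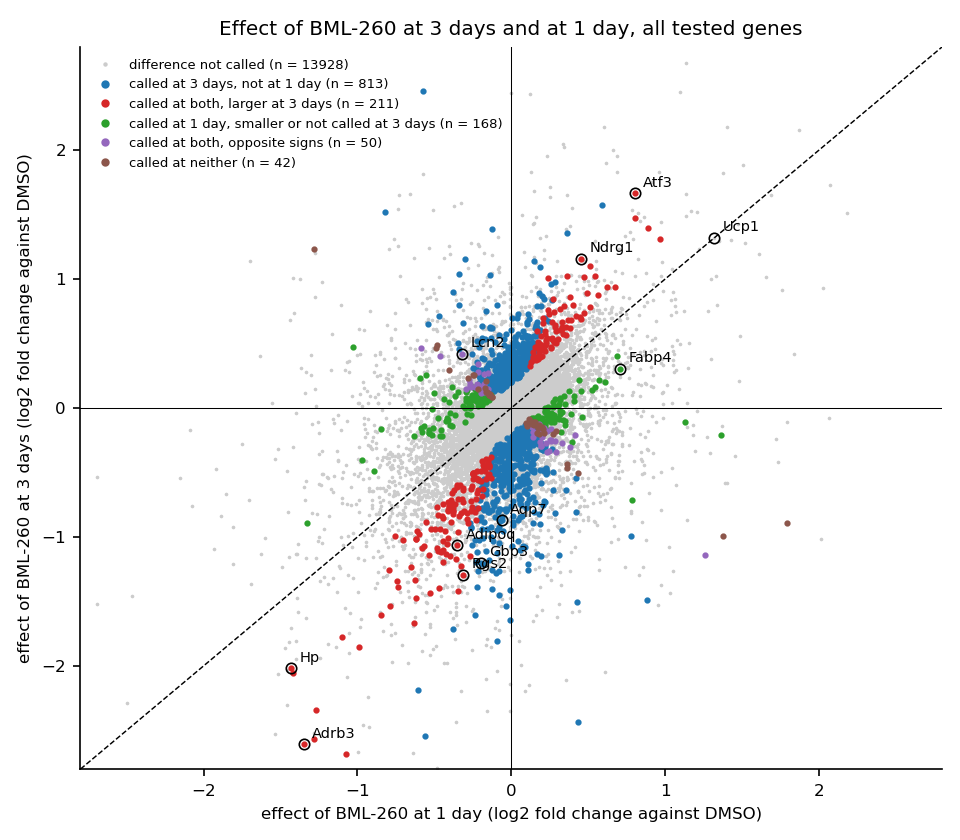
Effect of BML-260 at 3 days (vertical) against its effect at 1 day (horizontal), as log2 fold change against DMSO, for all tested genes; genes with a called difference are coloured by pattern, the dashed line marks equal effects and 12 genes lie outside the axes. Adrb3 lies below the line with effects of -2.61 at 3 days and -1.35 at 1 day, and Ucp1 lies on it.

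The same difference equals the change over time with BML-260 minus the change over time with DMSO, and so each called gene can also be sorted by which of the cultures changed. Between 3 days and 1 day 7051 genes (46.4%) changed with BML-260 and 5313 (34.9%) with DMSO. Of the 1284 genes, 601 changed over time with BML-260 alone, 378 with both in the same direction and 82 with both in opposite directions. In 209 genes the levels with DMSO changed over time and those with BML-260 were not called as changed. Angptl4, a secreted inhibitor of lipoprotein lipase, is one of these, with a change over time of -0.14 with BML-260 and 0.74 with DMSO. Pgp, a phosphatase that removes toxic by-products of glycolysis, is another, with 0.00 with BML-260 and -0.96 with DMSO. Adrb3, by contrast, changed by -1.08 with BML-260, against 0.18 with DMSO.

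**Figure D3:**
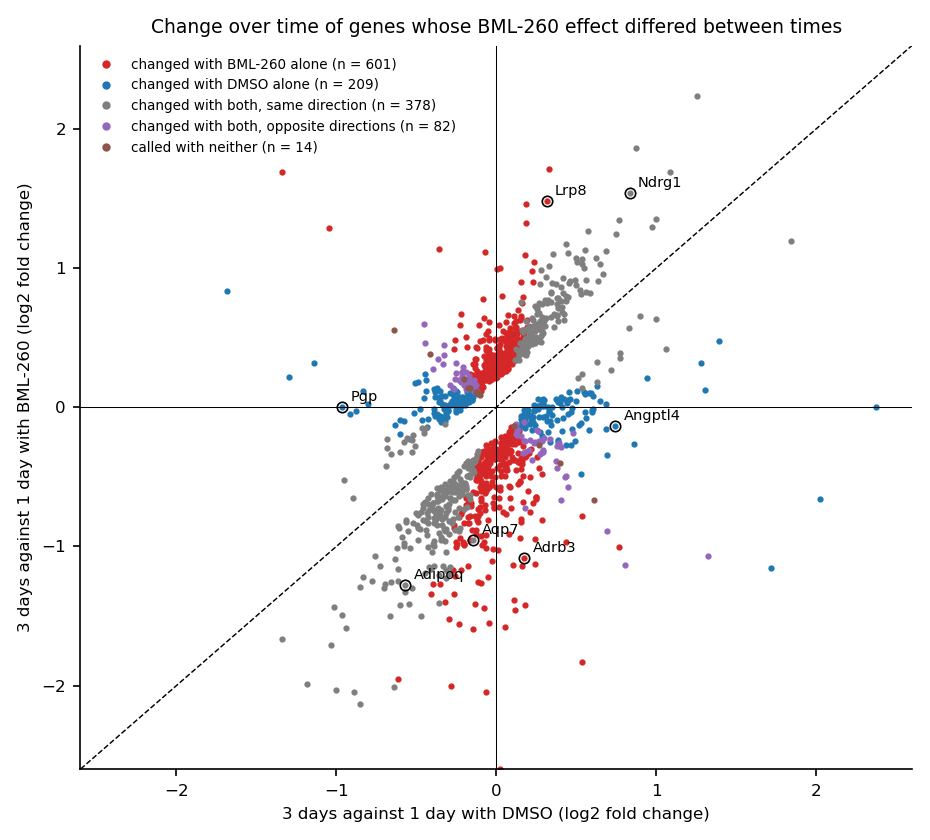
Log2 fold change at 3 days against 1 day with BML-260 (vertical) and with DMSO (horizontal) for the 1284 genes whose effects differed, coloured by which change over time was called; the dashed line marks equal changes and 3 genes lie outside the axes. The 209 genes in blue lie along the horizontal axis, where the change was called with DMSO alone, and the 601 in red along the vertical axis.

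The gene lists were chosen with earlier results of these data known, so their shares and ranks describe them and were not tested. Genes of adipocyte identity were the group with the highest share of calls among the 43 lists described here, of which 39 had at least 10 tested members. Of 30 members, all tested, 20 were called lower and 2 higher, a share of 73.3% called against 8.44% of all tested genes, and their median difference was -0.33, against -0.02 over all tested genes. The median effect was -0.50 at 3 days, where 22 were lower and 3 higher, and -0.22 at 1 day, where 16 were lower and 4 higher. With the GC correction 20 were lower and 1 higher, and without both libraries that stand apart 19 and 0. Adipoq, which encodes the adipokine adiponectin (chr16:23146536-23158028, plus strand, GRCm38), had 458 and 438 CPM with BML-260 at 3 days against 938 and 935 with DMSO at 3 days, and 1025 and 1153 CPM with BML-260 at 1 day against 1379 and 1401 with DMSO at 1 day. BML-260 lay below DMSO at both times with no overlap, and the gap was wider at 3 days. Its effect was -1.06 at 3 days and -0.35 at 1 day, a difference of -0.71 ± 0.08 (SE, adjusted p = 9.30e-06).

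Aqp7, the glycerol channel of fat cells, was lower at 3 days alone. It had 70.8 and 76.4 CPM with BML-260 at 3 days against 133 and 136 with DMSO at 3 days, and 139 and 146 CPM with BML-260 at 1 day against 147 and 150.3 with DMSO at 1 day. The 2 libraries of BML-260 at 3 days stood far below the other 6, and the difference was -0.81 ± 0.07 (adjusted p = 1.92e-07). Lgals12, a lectin of lipid droplets, had 91.5 and 88.3 CPM with BML-260 at 3 days against 169 and 159 with DMSO, and 181 and 189 CPM with BML-260 at 1 day against 215 and 220.0 with DMSO, a difference of -0.64 ± 0.07. Acvr1c, the activin receptor of adipocytes, had 72.1 and 71.9 CPM with BML-260 against 187 and 176 with DMSO at 3 days, and 123 and 131 CPM with BML-260 against 193 and 199.9 with DMSO at 1 day, a difference of -0.71 ± 0.08. Cfd, the serine protease adipsin, differed by -0.59 ± 0.08, and Retn, which encodes resistin, by -1.03 ± 0.19. In both of these the BML-260 libraries lay below the DMSO libraries at each time without overlap. Further lower members were Lipe, the hormone-sensitive lipase (-0.46), the carbonic anhydrase Car3 (-0.58), the droplet coat gene Plin4 (-0.42), the lipase Lpl (-0.30), Pck1 of glyceroneogenesis (-0.82) and the fatty acid transporter Cd36 (-0.35). The 2 higher members, named after their values were seen, were Sncg (0.43) and Agt, which encodes angiotensinogen (0.51). Plin1, the main lipid droplet coat, differed by 0.03 and did not pass the test (adjusted p = 0.83).

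**Figure D4:**
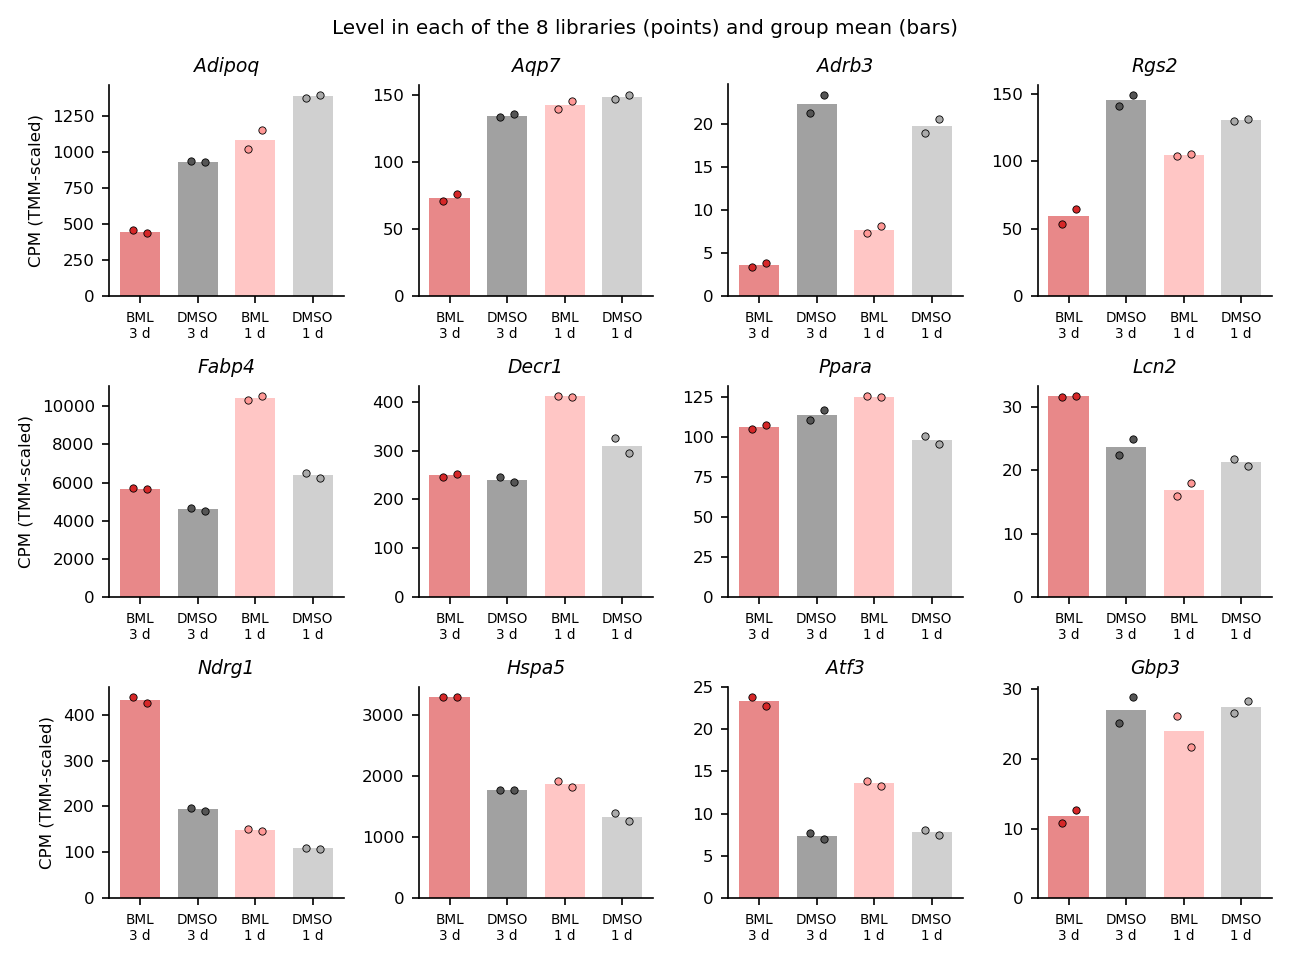
TMM-scaled CPM of 12 named genes in the 8 libraries, as points, with the group mean as a bar; BML-260 stands left of DMSO, at 3 days and then at 1 day. The libraries of BML-260 at 3 days are the lowest for Adipoq, Aqp7, Adrb3, Rgs2 and Gbp3, and the highest for Lcn2, Ndrg1, Hspa5 and Atf3.

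Among transcription factors of the fat cell program, 42 were tested, of which 6 were lower and 1 higher; with the GC correction these were 5 and 1, and without both libraries 5 and 1. The share called was 16.7%, and the list's median difference was -0.03. Pparg, the master regulator of adipogenesis, had 386 and 393 CPM with BML-260 at 3 days against 534 and 534 with DMSO at 3 days, and 370.3 and 376 CPM with BML-260 at 1 day against 419.8 and 406 with DMSO at 1 day. Its level with DMSO was higher at 3 days than at 1 day, its change over time with BML-260 was not called, and the difference was -0.31 ± 0.06 (adjusted p = 0.0017). Cebpa, its partner in the same program, had 111 and 109 CPM with BML-260 against 203 and 218 with DMSO at 3 days, and 246 and 292 CPM with BML-260 against 355 and 406 with DMSO at 1 day. All BML-260 libraries were below those of DMSO of the same time, the difference was -0.44 ± 0.09, and the call was lost with DESeq2. Tle3, a corepressor that favours adipogenesis, went the other way: 101 and 103 CPM with BML-260 at 3 days against 96.5 and 98.2 with DMSO, and 69.2 and 70.3 CPM with BML-260 at 1 day against 91.6 and 97.2 with DMSO. It was low in the 2 libraries of BML-260 at 1 day alone, and the difference was 0.50 ± 0.07. Tfam, which maintains mitochondrial DNA, differed by -0.35 ± 0.07, Nr1h3, the liver X receptor alpha, by -0.31, and Ebf1 by -0.26.

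Adrb3 encodes the beta-3 adrenergic receptor (chr8:27225776-27250616, minus strand, GRCm38). Reads of a predicted gene, Gm45470, which overlaps it, may be among its counts. It had 3.40 and 3.93 CPM with BML-260 at 3 days against 21.3 and 23.5 with DMSO at 3 days, and 7.34 and 8.18 CPM with BML-260 at 1 day against 19.0 and 20.6 with DMSO at 1 day. The DMSO libraries of both times lay close together, those of BML-260 at 1 day well below them, and those of BML-260 at 3 days lowest. The effect was -2.61 at 3 days and -1.35 at 1 day, a difference of -1.26 ± 0.18 (adjusted p = 8.18e-05). Of 35 tested genes of beta-adrenergic and cyclic AMP machinery, 4 were lower and 1 higher, with a median difference of -0.05. The share called was 14.3%, against 8.44% of all tested genes. Under the GC correction the counts were again 4 and 1, and without both libraries 3 and 0. The other lower members were the phosphodiesterases Pde7b (-1.37, at most 3.55 CPM in the 8 libraries and not called without both libraries) and Pde3b (-0.27) and the protein kinase A subunit Prkar2b (-0.24, not called with the GC correction). Gnas, the stimulatory G protein subunit, was higher (0.56), a call lost without both libraries; its counts may include the antisense gene Nespas.

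Early genes that cyclic AMP and CREB induce were split, with 8 lower and 4 higher of 28 tested, 42.9% called in all. With the GC correction 7 were lower and 3 higher, and without both libraries 5 and 2. Rgs2, a brake on G protein signalling, had 53.4 and 65.0 CPM with BML-260 at 3 days against 141 and 149 with DMSO at 3 days, and 104 and 106 CPM with BML-260 at 1 day against 129.7 and 131 with DMSO at 1 day. Both BML-260 groups were below both DMSO groups, and those of 3 days were lowest, with a difference of -0.98 ± 0.09 (adjusted p = 1.92e-07). Nr4a1, an orphan nuclear receptor, differed by -0.66 ± 0.15, Rasd1, a small GTPase, by -0.67 ± 0.16, Fos, a subunit of AP-1, by -0.63, and Egr1, a zinc finger factor, by -0.31. The higher members were Atf3 and Per1, described below, and the AP-1 subunits Jund (0.47) and Jun (0.34).

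Of 20 genes of the brown thermogenic program 4 were lower and 0 higher, 20% of the list, with a median difference of -0.20. The counts were 4 and 0 with the GC correction and 2 and 0 without both libraries. Ucp1 had 32.8 and 30.7 CPM with BML-260 at 3 days against 12.3 and 13.1 with DMSO at 3 days, and 15.3 and 12.6 CPM with BML-260 at 1 day against 6.05 and 5.10 with DMSO at 1 day. Both treatments had higher levels at 3 days, and BML-260 was above DMSO at each time without overlap. The effect was 1.32 at 3 days and 1.32 at 1 day, a difference of 0.00 ± 0.17 (adjusted p = 0.999) with a 95% interval of -0.35 to 0.35. Cidea, which acts in lipid droplet fusion, likewise differed by -0.03 ± 0.08 (adjusted p = 0.86), with a 95% interval of -0.19 to 0.13. Ppargc1a, the coactivator of mitochondrial biogenesis, had 41.2 and 38.6 CPM with BML-260 at 3 days against 48.7 and 48.2 with DMSO, and 51.4 and 50.1 CPM with BML-260 at 1 day against 49.7 and 51.0 with DMSO. Its difference of -0.29 ± 0.09 passed the test (adjusted p = 0.0347) and did not with the GC correction (adjusted p = 0.0834), without both libraries, or in 7 of 8 fits that leave out 1 library. Kcnk3, a potassium channel that limits thermogenesis, was lower (-0.32), as was Ppara, described below. Letmd1 (-0.21) was lower too, and that call was lost in every fit that leaves out 1 library. Dusp22, the phosphatase the compound is sold against, had 64.0 and 72.4 CPM with BML-260 at 3 days against 69.3 and 72.9 with DMSO at 3 days, and 78.6 and 80.3 CPM with BML-260 at 1 day against 75.9 and 75.7 with DMSO at 1 day, a difference of -0.13 ± 0.08 (adjusted p = 0.37, 95% interval -0.29 to 0.04).

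In mitochondrial fatty acid oxidation the effect of BML-260 was lower at 3 days than at 1 day for 8 of 22 enzymes. Of the 22, 17 were higher with BML-260 than with DMSO at 1 day and 7 at 3 days, and the median effect was 0.02 at 3 days and 0.22 at 1 day. The difference was called lower for 8 and higher for 1, 40.9% of the list, with a median of -0.19. Under the GC correction 8 were lower and 1 higher, without both libraries 5 and 0, and in the fits that leave out 1 library 2 to 9 were lower. Decr1, a reductase needed to oxidize unsaturated fatty acids, had 246 and 253 CPM with BML-260 at 3 days against 245 and 236 with DMSO at 3 days, and 412 and 409.5 CPM with BML-260 at 1 day against 326 and 294 with DMSO at 1 day. BML-260 stood above DMSO without overlap at 1 day, and the treatments differed little at 3 days, with a difference between effects of -0.35 ± 0.07 (adjusted p = 0.0021). Acadm, the medium-chain acyl-CoA dehydrogenase, had 551 and 548 CPM with BML-260 against 619.8 and 577 with DMSO at 3 days, and 878 and 874 CPM with BML-260 against 791 and 757 with DMSO at 1 day. It was below DMSO at 3 days and above it at 1 day, both called, and the difference was -0.30 ± 0.06. Others of the group were Acadl, the long-chain dehydrogenase (-0.28), the isomerase Eci1 (-0.25) and the trifunctional protein subunit Hadhb (-0.32). The list also counts Hibch (-0.37), a hydrolase of valine breakdown that is a member of the branched-chain amino acid list too. The thioesterase Acot2 was the higher member (0.29).

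The fatty acid binding protein Fabp4, a target of Pparg, had 5729 and 5647 CPM with BML-260 at 3 days against 4674 and 4524 with DMSO at 3 days, and 10313 and 10560.5 CPM with BML-260 at 1 day against 6517 and 6268 with DMSO at 1 day. BML-260 was higher at both times, and the effect of 0.31 at 3 days was smaller than that of 0.71 at 1 day (a difference of -0.40 ± 0.06, adjusted p = 9.16e-05). Ppara, the nuclear receptor that drives fatty acid oxidation, had 105 and 108 CPM with BML-260 at 3 days against 111 and 117 with DMSO at 3 days, and 126 and 125 CPM with BML-260 at 1 day against 101 and 95.8 with DMSO at 1 day. It was below DMSO at 3 days, where the effect was not called, and above it at 1 day, with a difference of -0.45 ± 0.07 (adjusted p = 1.84e-04). Among 26 peroxisome genes 5 were lower and 2 higher, counts that were 6 and 2 with the GC correction and 0 and 1 without both libraries. The share of peroxisome genes called was 26.9%, against 8.44% of all tested genes. The lower ones were the carnitine acyltransferase Crot (-0.32), the transporter Abcd3 (-0.32), the import factor Pex13 (-0.29), Ehhadh (-0.51) and Scp2 (-0.26). Acox2, an oxidase of branched-chain fatty acids and bile acid intermediates, was higher, with 55.4 and 51.2 CPM with BML-260 against 20.7 and 19.7 with DMSO at 3 days, and 33.8 and 33.6 CPM with BML-260 against 18.8 and 17.6 with DMSO at 1 day, a difference of 0.51 ± 0.11.

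Many respiratory chain genes were higher with BML-260 at both times. Of 36 nuclear genes of complex I, 25 were higher at 3 days and 19 at 1 day, and the difference was called for 1, Ndufb3 (-0.33). That is 2.78% of the list, against 8.44% of all tested genes. The median difference of the list was 0.03. Of 42 genes of complexes II to V, 22 were higher at 3 days and 20 at 1 day. In the difference 7 were higher and 1 lower, 19.0% of the list, with a median of 0.01. The higher ones were the cytochrome oxidase subunits Cox6a1, Cox5a, Cox8a and Cox5b, the complex III genes Uqcrq and Cyc1, and the ATP synthase subunit Atp5d, with differences of 0.21 to 0.34. With the GC correction 5 were higher and Cox6a1 and Cox8a were not called, and without both libraries 0 were higher. Uqcrq, a subunit of complex III, had 517 and 495 CPM with BML-260 at 3 days against 375 and 401 with DMSO at 3 days, and 597 and 678 CPM with BML-260 at 1 day against 587 and 637 with DMSO at 1 day. The groups overlapped at 1 day alone. Of 3 tested mitochondrially encoded genes 1 was called. This was mt-Co3, whose reads may include those of the overlapping mt-Atp6, and which had 3336 and 3742 CPM with BML-260 against 6085 and 6241 with DMSO at 3 days, and 6184 and 7025 CPM with BML-260 against 8013 and 7788 with DMSO at 1 day. It was lower with BML-260 at both times and more so at 3 days, with a difference of -0.54 ± 0.08 (adjusted p = 7.35e-05).

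Other mitochondrial lists had shares called of 5.88% to 10%, near the 8.44% of all tested genes. Mitochondrial ribosomal proteins gave 5 lower and 1 higher of 75, among them Mrpl51 (-0.37) and Mrps6 (-0.35). The citric acid cycle gave 1 of 17, the succinyl-CoA ligase Sucla2 (-0.29), and breakdown of branched-chain amino acids 2 of 20, Hibch and the dehydrogenase subunit Bckdha (0.40).

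Genes of glycolysis and glucose uptake were higher in the difference in 10 of 24 cases and lower in 1, 45.8% of the list. Their median difference was 0.16, from a median effect of 0.28 at 3 days, with 17 higher, and 0.14 at 1 day, with 13 higher. Under the GC correction 8 were higher and 2 lower, and without both libraries 8 and 0. Hk2, the hexokinase that commits glucose to the cell, had 329.9 and 302 CPM with BML-260 at 3 days against 227 and 201 with DMSO at 3 days, and 198 and 199 CPM with BML-260 at 1 day against 180.1 and 179 with DMSO at 1 day. BML-260 was above DMSO at both times and further above at 3 days, with a difference of 0.41 ± 0.08 (adjusted p = 0.0013). The glucose transporter Slc2a1 had 168 and 154 CPM with BML-260 against 107 and 106 with DMSO at 3 days, and 77.9 and 79.9 CPM with BML-260 against 67.5 and 68.1 with DMSO at 1 day, a difference of 0.38 ± 0.07. The platelet-type phosphofructokinase Pfkp differed by 0.35 ± 0.07, the isomerase Gpi1 by 0.33 ± 0.06, Aldoa by 0.26, Pgam1 by 0.29, Pgk1 by 0.24, Hk1 by 0.25 and the pyruvate kinase Pkm by 0.19. Gapdh differed by 0.50 ± 0.10; it has near-identical pseudogenes that may share its reads. Pdk1, the kinase that shuts pyruvate off from the mitochondrion, was the lower member, with effects of -0.15 at 3 days and 0.13 at 1 day.

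Of 20 targets of hypoxia-inducible factors, 4 were higher and 1 lower, and the counts were 5 and 1 with the GC correction and 4 and 0 without both libraries. The share called was 25%, against 8.44% of all tested genes. Slc2a1 and Pdk1 are members of this list too. Ndrg1, a stress-responsive gene (chr15:66929318-66969640, minus strand, GRCm38), had 439 and 426 CPM with BML-260 at 3 days against 196 and 191 with DMSO at 3 days, and 152 and 146 CPM with BML-260 at 1 day against 111 and 107 with DMSO at 1 day. All 4 groups were apart, in the order DMSO 1 day, BML-260 1 day, DMSO 3 days and BML-260 3 days. The effect was 1.16 at 3 days and 0.45 at 1 day, a difference of 0.71 ± 0.07 (adjusted p = 2.58e-07). Ddit4, an inhibitor of mTORC1, was above DMSO at 3 days and below it at 1 day, with 139 and 122 CPM with BML-260 against 109 and 116 with DMSO at 3 days, and 72.5 and 74.3 CPM with BML-260 against 87.5 and 90.2 with DMSO at 1 day, a difference of 0.49 ± 0.08. Higd1a, a mitochondrial protein induced by low oxygen, differed by 0.36 ± 0.07.

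Genes of cholesterol synthesis were higher in 5 of 24 and lower in 0, with a median difference of 0.15. The share called was 20.8%, against 8.44% of all tested genes. At 3 days 19 of the 24 were higher with BML-260 and at 1 day 8. The counts in the difference were 6 and 0 with the GC correction and 5 and 0 without both libraries. Srebf2, the transcription factor that drives the pathway, had 273 and 261 CPM with BML-260 at 3 days against 203 and 196 with DMSO at 3 days, and 199 and 198 CPM with BML-260 at 1 day against 209 and 224 with DMSO at 1 day. The libraries of BML-260 were above DMSO at 3 days and below it at 1 day, where the effect was not called, and the difference was 0.54 ± 0.07 (adjusted p = 1.63e-05). Sqle, the squalene epoxidase, had 309.7 and 301 CPM with BML-260 against 158 and 144 with DMSO at 3 days, and 208 and 179.6 CPM with BML-260 against 149 and 130.3 with DMSO at 1 day, a difference of 0.54 ± 0.10. Mvd, the mevalonate pyrophosphate decarboxylase, differed by 0.71 ± 0.12 and the lanosterol synthase Lss by 0.40 ± 0.08. Outside the list, Lrp8, a receptor for apolipoprotein E and reelin, had 10.7 and 9.46 CPM with BML-260 against 5.19 and 4.69 with DMSO at 3 days, and 3.47 and 3.75 CPM with BML-260 against 4.54 and 3.44 with DMSO at 1 day. The libraries of BML-260 at 3 days stood highest, and the difference of 1.16 ± 0.24 (adjusted p = 0.0025) was the largest positive one among the called genes that the naming rule returned.

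Chaperones of the endoplasmic reticulum and other genes of the unfolded protein response were higher in 5 of 22 and lower in 0, with a median difference of 0.12. In all 22.7% of the list was called, against 8.44% of all tested genes. The effect was called higher for 16 at 3 days and 5 at 1 day. With the GC correction 6 were higher in the difference, and without both libraries 4. Hspa5, which encodes the chaperone BiP, had 3281 and 3294 CPM with BML-260 at 3 days against 1774 and 1775 with DMSO at 3 days, and 1915 and 1812 CPM with BML-260 at 1 day against 1388 and 1267 with DMSO at 1 day. BML-260 was above DMSO at both times without overlap, with effects of 0.89 at 3 days and 0.49 at 1 day and a difference of 0.40 ± 0.07 (adjusted p = 0.0011). Hyou1, a large chaperone, had 258 and 263 CPM with BML-260 against 178 and 176 with DMSO at 3 days, and 154 and 152 CPM with BML-260 against 144 and 142 with DMSO at 1 day, a difference of 0.46 ± 0.06. The secreted factor Manf differed by 0.47 ± 0.08, the chaperone cofactor Sdf2l1 by 0.46 ± 0.12, and the ubiquitin ligase Syvn1 of ER-associated degradation by 0.42 ± 0.08.

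Promoter sequence was read for this list because its members share a known element, the ER stress response element, which reads CCAAT, 9 bases of any kind and CCACG. RefSeq promoter windows on GRCm38.p6, from 250 bases before to 50 after the start, matched 19 of the 22 tested genes. The element was found on either strand in 8 of 19 windows (42.1%), against 39 of 32851 windows of all genes (0.119%). The 8 were Hspa5, Hsp90b1, Calr, Canx, Pdia6, Dnajc3, Creld2 and Syvn1, and of these Hspa5 and Syvn1 had a called difference. Their windows are printed with the element in capitals, Hspa5 at chr2:34771840-34772139, plus strand, and Syvn1 at chr19:6046326-6046625, plus strand.
Hspa5: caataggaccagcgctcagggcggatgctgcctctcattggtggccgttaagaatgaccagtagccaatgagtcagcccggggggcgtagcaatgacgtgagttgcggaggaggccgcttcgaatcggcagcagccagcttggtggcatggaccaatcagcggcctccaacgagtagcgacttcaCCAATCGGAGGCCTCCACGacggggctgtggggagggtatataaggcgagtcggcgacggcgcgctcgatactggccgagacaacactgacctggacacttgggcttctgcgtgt
Syvn1: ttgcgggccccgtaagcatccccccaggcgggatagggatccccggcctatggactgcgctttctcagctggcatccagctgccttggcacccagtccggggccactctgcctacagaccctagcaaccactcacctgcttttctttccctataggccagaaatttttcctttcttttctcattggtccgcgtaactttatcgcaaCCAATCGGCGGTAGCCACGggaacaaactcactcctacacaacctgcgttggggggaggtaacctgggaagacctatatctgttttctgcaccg
A match describes the letters only. Canx, which holds the element, had a difference of -0.05 (adjusted p = 0.67), and the window of Sdf2l1, which was called, does not hold these letters.

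Targets of Atf4 in the integrated stress response were higher in 5 of 28 and lower in 1, with a median difference of 0.17; the counts were 8 and 2 with the GC correction and 3 and 0 without both libraries. Atf3, a stress-induced repressor, had 23.9 and 22.8 CPM with BML-260 at 3 days against 7.73 and 6.96 with DMSO at 3 days, and 13.9 and 13.3 CPM with BML-260 at 1 day against 8.09 and 7.52 with DMSO at 1 day. The DMSO libraries were alike at both times, BML-260 at 1 day stood above them and BML-260 at 3 days highest, with a difference of 0.86 ± 0.16 (adjusted p = 9.72e-04). Gdf15, a stress hormone, had 40.7 and 33.2 CPM with BML-260 against 16.9 and 19.2 with DMSO at 3 days, and 27.2 and 33.6 CPM with BML-260 against 22.3 and 25.1 with DMSO at 1 day, a difference of 0.67 ± 0.14 whose call was lost without both libraries. Aldh18a1, of proline synthesis, differed by 0.34 ± 0.06 and Nupr1 by 0.26. The lower member was the amino acid transporter Slc7a3 (-1.40), whose group means were at most 1.90 CPM. Of the Atf4 targets 21.4% were called, against 8.44% of all tested genes. Nupr1 was not called in 6 of 8 fits that leave out 1 library.

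Heat shock and chaperonin genes were higher in 3 of 23 (Hspa8, Dnajb1 and Hspb8, with differences of 0.24 to 0.36), 13.0% of the list against 8.44% of all tested genes. Without both libraries none of these 3 was called and 1 other member was, and with the GC correction 4 members were higher. Most targets of NRF2 and glutathione genes were higher with BML-260 at both times, 21 of 29 at 3 days and 24 at 1 day, while in the difference 3 were higher, 2 lower and the median was 0.00 (higher and lower 5 and 1 with the GC correction, 0 and 2 without both libraries). Hmox1, the heme oxygenase, had 1189 and 1235 CPM with BML-260 at 3 days against 621 and 644 with DMSO at 3 days, and 798 and 835 CPM with BML-260 at 1 day against 525 and 535 with DMSO at 1 day, a difference of 0.31 ± 0.08 that was not called without both libraries or with DESeq2. Cbr3, a carbonyl reductase, and the ferritin gene Fth1 were the other higher members (0.34 and 0.27), and Aox1 (-0.49) and Mgst1 (-0.22) the lower. In all 17.2% of the NRF2 and glutathione list was called, against 8.44% of all tested genes. Mgst1 was not called with the GC correction, with DESeq2 or in 7 of 8 fits that leave out 1 library. Transfer RNA synthetases gave 2 higher of 20, the proteasome 1 of 31, and lysosome and autophagy genes 3 of 33 (higher and lower 2 and 0 with the GC correction, 0 and 0 without both libraries), among them the autophagy receptor Sqstm1 (0.24) and the kinase Ulk1 (0.36). These shares of 10%, 3.23% and 9.09% are near or below the 8.44% of all tested genes. Of 18 targets of p53 3 were higher and 1 lower (higher and lower 3 and 1 with the GC correction, 3 and 1 without both libraries), led by the cyclin-dependent kinase inhibitor Cdkn1a. It had 247 and 228 CPM with BML-260 against 186 and 188 with DMSO at 3 days, and 199 and 199 CPM with BML-260 against 221 and 212 with DMSO at 1 day, a difference of 0.47 ± 0.07. The antiproliferative gene Btg2 was the lower one (-0.42). Of the p53 targets 22.2% were called, against 8.44% of all tested genes.

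The effect of BML-260 on interferon-stimulated genes was lower at 3 days than at 1 day for 7 of 43. Against DMSO, 29 were lower and 1 higher at 3 days, and 3 lower and 0 higher at 1 day, with median effects of -0.47 at 3 days and -0.18 at 1 day. The difference was called lower for 7 and higher for 0, 16.3% of the list, with a median of -0.32. Under the GC correction 8 were lower, and without both libraries 3. Gbp3, an interferon-induced GTPase with close paralogs, had 10.7 and 12.7 CPM with BML-260 at 3 days against 25.2 and 28.9 with DMSO at 3 days, and 26.2 and 21.7 CPM with BML-260 at 1 day against 26.6 and 28.2 with DMSO at 1 day. The libraries of BML-260 at 3 days lay far below the other 6, and the difference was -1.0 ± 0.15 (adjusted p = 1.24e-04). Gbp2 differed by -0.50 ± 0.10, Ifit3 by -0.66, Igtp by -0.62 ± 0.16 (its counts may include the overlapping Irgm2), Xaf1 by -0.90 and the kinase Eif2ak2 by -0.39 ± 0.10.

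These genes are known to share the interferon-stimulated response element, and its core, GAAA, any 2 bases and GAAA, was searched on both strands of the same windows. Of 43 tested genes 30 matched, with 37 windows, of which 17 (45.9%) held the element, against 1131 of 32851 windows of all genes (3.44%). Windows of 3 genes with a called difference are printed with the element in capitals: Gbp3 at chr3:142559794-142560093, plus strand, where 2 matches overlap, Gbp2 at chr3:142620413-142620712, plus strand, and Ifit3 at chr19:34583279-34583578, plus strand, with 2 matches. In all 3 the match lies on the opposite strand and so reads TTTC, 2 bases and TTTC.
Gbp3: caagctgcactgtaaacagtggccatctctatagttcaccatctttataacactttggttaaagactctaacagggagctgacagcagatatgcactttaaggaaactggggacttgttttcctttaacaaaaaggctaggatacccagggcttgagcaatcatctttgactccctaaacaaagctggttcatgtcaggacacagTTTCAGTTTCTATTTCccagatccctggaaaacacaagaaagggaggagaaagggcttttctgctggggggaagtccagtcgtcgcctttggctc
Gbp2: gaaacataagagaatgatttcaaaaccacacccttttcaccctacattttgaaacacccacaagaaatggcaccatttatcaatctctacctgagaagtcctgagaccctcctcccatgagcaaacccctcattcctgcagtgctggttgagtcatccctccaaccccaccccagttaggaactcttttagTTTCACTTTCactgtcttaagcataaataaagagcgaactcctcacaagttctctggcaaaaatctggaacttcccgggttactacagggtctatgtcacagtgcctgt
Ifit3: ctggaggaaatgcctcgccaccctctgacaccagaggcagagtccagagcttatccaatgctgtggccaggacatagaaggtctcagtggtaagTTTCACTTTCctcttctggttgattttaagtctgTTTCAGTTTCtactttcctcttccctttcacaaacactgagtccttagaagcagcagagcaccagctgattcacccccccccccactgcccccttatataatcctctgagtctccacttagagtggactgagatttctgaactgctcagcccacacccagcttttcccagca
Igtp and Eif2ak2, also called, hold the element reading GAAA, 2 bases and GAAA, and their windows are not printed. A second window of Gbp3 does not hold these letters, nor does the window of Xaf1, which was called. The remaining genes with the element had no called difference. Among them Stat2, Rsad2, Ddx60 and Tgtp1 had positive differences and the others negative ones. For the cholesterol list a sterol regulatory element was searched in the same way and was found in 0 of 19 windows, against 30 of 32851.

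Complement, chemokine and acute phase lists gave more lower than higher calls. In complement 4 of 12 were lower and 0 higher, 33.3% of the list, with 4 lower under the GC correction and 3 without both libraries. C4b had 2.69 and 2.37 CPM with BML-260 at 3 days against 12.4 and 13.3 with DMSO at 3 days, and 3.58 and 4.38 CPM with BML-260 at 1 day against 9.37 and 9.93 with DMSO at 1 day. BML-260 was far below DMSO at both times, with a difference of -1.07 ± 0.22 (adjusted p = 0.0031); its paralog C4a may share reads with it. C3, the central complement component, differed by -0.32 ± 0.06, Masp1 by -0.73 ± 0.15, and Cfd, given above, is also a member. Chemokine and NF-kB genes were lower in 5 of 19, 26.3% of the list, with 4 under the GC correction and 2 without both libraries. Ccl2, which attracts monocytes, had 6.47 and 6.09 CPM with BML-260 at 3 days against 22.9 and 22.4 with DMSO at 3 days, and 13.6 and 14.2 CPM with BML-260 at 1 day against 25.3 and 29.9 with DMSO at 1 day. Both BML-260 groups were below both DMSO groups, and the difference was -0.86 ± 0.15 (adjusted p = 6.74e-04).

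Of 18 STAT3 and acute phase genes 4 were lower and 1 higher, 5 and 1 with the GC correction and 4 and 1 without both libraries. Hp, which encodes haptoglobin, had 219 and 227 CPM with BML-260 at 3 days against 870.1 and 935 with DMSO at 3 days, and 384 and 467 CPM with BML-260 at 1 day against 1103 and 1193.7 with DMSO at 1 day. It was far lower with BML-260 at both times, with effects of -2.02 at 3 days and -1.43 at 1 day and a difference of -0.59 ± 0.09 (adjusted p = 2.66e-04). Steap4, a metalloreductase, had 66.4 and 55.4 CPM with BML-260 against 143 and 141 with DMSO at 3 days, and 133 and 145 CPM with BML-260 against 179 and 170.4 with DMSO at 1 day, a difference of -0.90 ± 0.10. Osmr, the oncostatin M receptor, differed by -0.44 ± 0.07 and ceruloplasmin, Cp, by -0.45 ± 0.11. In all 27.8% of the list was called, against 8.44% of all tested genes. Lcn2, the siderophore-binding lipocalin 2, was the higher member: 31.6 and 31.8 CPM with BML-260 at 3 days against 22.3 and 25.0 with DMSO at 3 days, and 16.0 and 17.9 CPM with BML-260 at 1 day against 21.8 and 20.7 with DMSO at 1 day. It was above DMSO at 3 days and below it at 1 day without overlap, and the difference was 0.74 ± 0.12 (adjusted p = 3.46e-04).

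Insulin and IGF signalling genes were lower in 5 of 24 and higher in 0, 20.8% of the list, with a median difference of -0.15. The counts were 5 lower with the GC correction and 3 without both libraries. Igf1, the growth factor, had 14.3 and 13.0 CPM with BML-260 at 3 days against 26.3 and 26.8 with DMSO at 3 days, and 17.6 and 16.9 CPM with BML-260 at 1 day against 22.2 and 21.6 with DMSO at 1 day. BML-260 was below DMSO at both times without overlap, and the difference was -0.61 ± 0.13 (adjusted p = 0.0038). The receptor-binding inhibitor Grb14 differed by -0.65 ± 0.13, Trib1 by -0.46 ± 0.11 and the kinase Akt2 by -0.21, whose call was lost in every fit that leaves out 1 library. Among lipid droplet and lipolysis genes 4 of 12 were lower and 0 higher, 4 and 4 lower in the fits with the GC correction and without both libraries. Angptl4, given above for its change with DMSO, had 232 and 277 CPM with BML-260 at 3 days against 538 and 589 with DMSO at 3 days, and 248 and 310.2 CPM with BML-260 at 1 day against 320.1 and 352 with DMSO at 1 day. The libraries of DMSO at 3 days stood above the other 6, and the difference was -0.88 ± 0.12 (adjusted p = 6.63e-05). Pnpla3, a lipid droplet acyl hydrolase, differed by -0.42 ± 0.08, the monoglyceride lipase Mgll by -0.35 ± 0.08 and the droplet-forming Fitm2 by -0.27, which was not called without both libraries. Fatty acid and triglyceride synthesis was split, with 3 higher and 3 lower of 23 (higher and lower 2 and 5 with the GC correction, 3 and 4 without both libraries). The desaturases Fads2 (0.33) and Fads1 (0.25) and the fatty acid synthase Fasn (0.24, not called with the GC correction) were higher. Thrsp (-0.43), the acetyl-CoA carboxylase Acacb (-0.28) and Gpd1 (-0.32) were lower. The shares called were 33.3% of lipid droplet and lipolysis genes and 26.1% of synthesis genes, against 8.44% of all tested genes.

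Most matrix genes were lower with BML-260 at both times. Of 43, 28 were lower at 3 days and 34 at 1 day, with median effects of -0.30 at 3 days and -0.41 at 1 day. In the difference 4 were higher and 3 lower, 16.3% of the list, against 2 and 3 with the GC correction and 3 and 2 without both libraries. Col1a1, the chain of type I collagen, had 2159 and 2105 CPM with BML-260 at 3 days against 2288 and 2519 with DMSO at 3 days, and 857 and 809 CPM with BML-260 at 1 day against 1129 and 1278 with DMSO at 1 day, a difference of 0.36 ± 0.08 that was lost without DMSO 1 day replicate 2 and with DESeq2. Hspg2, the basement membrane proteoglycan perlecan, differed by 0.43 ± 0.07, and the laminin chain Lama4 by -0.31 ± 0.06. Among 19 smooth muscle and SRF target genes 4 were lower and 2 higher, 31.6% of the list (higher and lower 1 and 5 with the GC correction, 2 and 3 without both libraries). The sums of smooth muscle and preadipocyte markers given at the outset moved with treatment as well, and their part in these calls was not tested. Acta2, the smooth muscle actin, had 36.7 and 34.0 CPM with BML-260 against 81.0 and 87.7 with DMSO at 3 days, and 30.6 and 35.4 CPM with BML-260 against 56.2 and 58.3 with DMSO at 1 day, a difference of -0.46 ± 0.10. Ctgf, a matricellular protein, differed by -0.64 ± 0.12, the adhesion molecule Mcam by -0.51 ± 0.10 and Ankrd1 by -0.67, while Vcl, which encodes vinculin (0.29), and Srf itself (0.47, not called with the GC correction) were higher. Preadipocyte and fibroblast markers gave 2 lower of 15 (13.3%, against 8.44% of all tested genes), Wnt5a (-0.46) and Fbn1 (-0.24). Neither was called without both libraries, with DESeq2, or in at least 6 of 8 fits that leave out 1 library. TGF-beta and BMP signalling gave 2 of 25, Acvr1c and the receptor Tgfbr2 (-0.32), and matrix proteases 2 of 26, Mmp11 (-0.65) and Adam15 (0.28, not called with the GC correction). Both shares are near the 8.44% of all tested genes.

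Of 36 cell cycle genes 15 were lower and 3 higher with BML-260 at 3 days, and 20 were lower and 0 higher at 1 day. In the difference 4 were higher and 0 lower, with 4 higher under the GC correction and 2 without both libraries. The share of cell cycle genes called in the difference was 11.1%, near the 8.44% of all tested genes. Plk1, a mitotic kinase, had 55.8 and 47.5 CPM with BML-260 at 3 days against 46.3 and 44.4 with DMSO at 3 days, and 41.8 and 41.4 CPM with BML-260 at 1 day against 49.4 and 51.0 with DMSO at 1 day, a difference of 0.46 ± 0.09. Mcm2, of the replicative helicase, differed by 0.30 ± 0.06, Cdc20, which activates the anaphase complex, by 0.43 ± 0.08, and Ccnb1 by 0.22. Neither Cdc20 nor Ccnb1 was called without both libraries, and Ccnb1 was not called in 7 of 8 fits that leave out 1 library. Clock genes were split, 4 higher and 3 lower of 18, 38.9% called, with 3 and 3 under the GC correction and 2 and 2 without both libraries. Per1, a repressor of the clock, had 133 and 139.7 CPM with BML-260 at 3 days against 92.4 and 91.4 with DMSO at 3 days, and 41.9 and 42.7 CPM with BML-260 at 1 day against 44.4 and 42.1 with DMSO at 1 day. Both treatments were higher at 3 days, the effect was called at 3 days alone, and the difference was 0.60 ± 0.09 (adjusted p = 1.77e-04). Bhlhe40 (0.33) and Bhlhe41 (0.50), transcriptional repressors of the clock, were higher too, and Per3 (-0.24) and Tef (-0.21) were among the lower. The labels do not give the hour of collection. Among 24 dual-specificity phosphatases 2 were higher and 1 lower (higher and lower 2 and 1 with the GC correction, 0 and 1 without both libraries). Dusp8, a phosphatase of JNK and p38 kinases, had 12.9 and 12.1 CPM with BML-260 against 6.05 and 5.67 with DMSO at 3 days, and 9.34 and 8.82 CPM with BML-260 against 7.57 and 8.38 with DMSO at 1 day, a difference of 0.91 ± 0.21 that was lost without both libraries. Dusp16 (0.28, not called in 7 of 8 fits that leave out 1 library) was higher and Dusp1 (-0.32) lower. Antigen presentation gave 1 higher, Cd74 (0.91, at most 8.0 CPM), and 1 lower, Psme1 (-0.31), of 19, and neither was called without both libraries. The shares called were 12.5% of dual-specificity phosphatases and 10.5% of antigen presentation genes, against 8.44% of all tested genes. Of macrophage, endothelial and skeletal muscle markers, of which 4, 4 and 3 passed the filter, 0 were called.

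**Figure D5:**
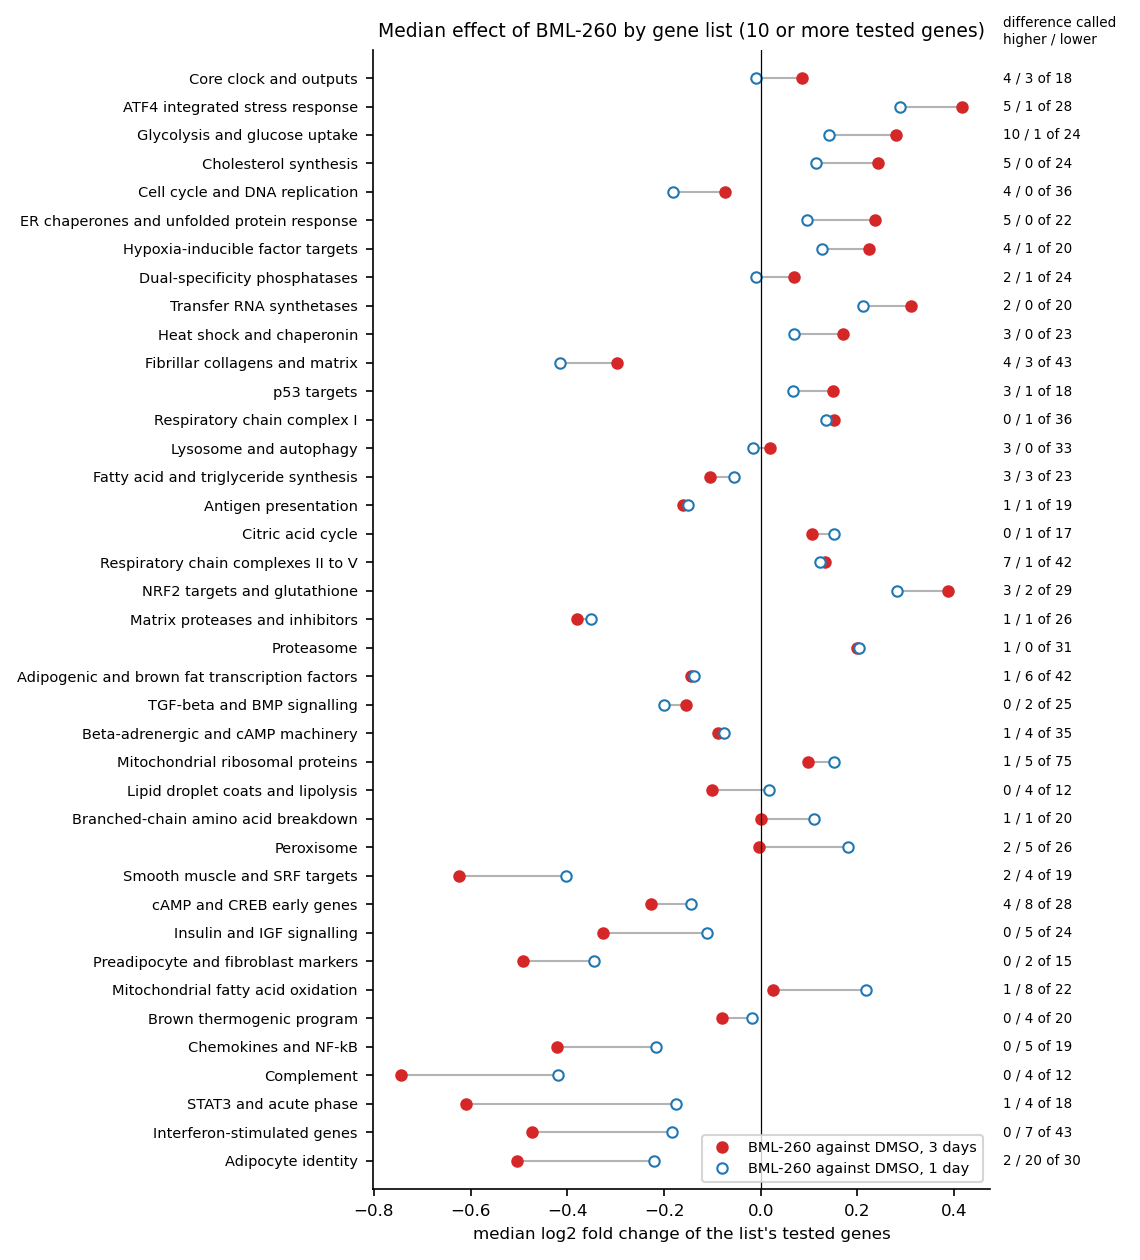
Median effect of BML-260 at 3 days (filled) and at 1 day (open) for each list with 10 or more tested genes, as log2 fold change against DMSO, ordered by the median difference; the numbers at right are members called higher and lower in the difference. Adipocyte identity has medians of -0.50 at 3 days and -0.22 at 1 day, and mitochondrial fatty acid oxidation 0.02 at 3 days and 0.22 at 1 day.

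Genes outside these lists were among those of largest difference. Ghrh, which encodes growth hormone-releasing hormone, had 13.3 and 13.0 CPM with BML-260 at 3 days against 4.22 and 4.59 with DMSO at 3 days, and 2.76 and 2.8 CPM with BML-260 at 1 day against 1.63 and 2.04 with DMSO at 1 day. The libraries of BML-260 at 3 days were the highest, and the difference of 0.98 ± 0.26 (adjusted p = 0.0183) was lost with DESeq2 and without both libraries. Pgp had 31.4 and 32.5 CPM with BML-260 at 3 days against 19.2 and 21.3 with DMSO at 3 days, and 26.2 and 37.2 CPM with BML-260 at 1 day against 37.4 and 41.6 with DMSO at 1 day. It was lowest in DMSO at 3 days, and the difference was 0.97 ± 0.17. Cdr2 had 42.2 and 39.2 CPM with BML-260 against 19.7 and 20.7 with DMSO at 3 days, and 28.0 and 31.5 CPM with BML-260 against 26.3 and 24.4 with DMSO at 1 day, a difference of 0.77 ± 0.11. On the negative side, Prox1, a homeobox factor of lymphatic and liver development, had 6.58 and 6.19 CPM with BML-260 at 3 days against 17.0 and 17.2 with DMSO at 3 days, and 12.7 and 14.7 CPM with BML-260 at 1 day against 17.2 and 17.6 with DMSO at 1 day. Its DMSO levels were alike at both times and the difference was -1.08 ± 0.15 (adjusted p = 7.74e-05). Hcar2, the receptor for niacin and hydroxybutyrate that restrains lipolysis, had 8.39 and 7.05 CPM with BML-260 against 17.0 and 18.6 with DMSO at 3 days, and 10.7 and 12.1 CPM with BML-260 against 11.6 and 14.4 with DMSO at 1 day, a difference of -1.02 ± 0.18. Pdzd2, a multi-PDZ protein, had 58.6 and 63.1 CPM with BML-260 against 157 and 172 with DMSO at 3 days, and 100.4 and 101 CPM with BML-260 against 139 and 151 with DMSO at 1 day, a difference of -0.91 ± 0.08. The prolactin receptor Prlr differed by -0.94 ± 0.21, the cochaperone Dnajc28 by -0.95 ± 0.13, the collagen Col20a1 by -0.92 ± 0.14 and Lncbate1, a long noncoding RNA required for brown adipogenesis in mouse, by -0.91 ± 0.15. In these 7 genes the libraries of BML-260 at 3 days lay below all DMSO libraries. They were named for large negative differences without overlap between times, so this describes them and was not tested. Such lack of overlap, in either direction, held for 5727 of all tested genes (37.6%).

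Exons of another annotated gene overlap those of 78 of the 234 genes named by the rule, and no source used here gives the strand of counting. Among genes described above this holds for Pfkp with Pitrm1, Gapdh with Iffo1, Cdc20 with Elovl1, Mmp11 with Chchd10, Prox1 with Prox1os, Syvn1 with Mrpl49, Manf with Rbm15b, Cp with Hps3, Dusp1 with Ergic1, Mrps6 with Slc5a3 and Vcl with Ap3m1, and their counts may include reads of the partner.

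Besides those given so above, the calls of Kcnk3, Cox8a, Sucla2, Eci1, Hspb8, Sqstm1, Per3, Adam15, Eif2ak2, Cd74, Psme1, Gnas, Prkar2b, Dusp1 and Mrps35 were lost in 4 to 6 of 8 fits that leave out 1 library. Genes named with a difference and no levels from outside the naming rule were not followed through the other fits.

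Of the 50 genes with effects called in opposite directions, 22 had a positive effect at 3 days and a negative one at 1 day, and 28 the reverse. Scand1, a SCAN domain protein overlapped by Cnbd2, belongs to the 22, with 18.4 and 16.9 CPM with BML-260 at 3 days against 13.1 and 13.5 with DMSO at 3 days, and 15.8 and 20.4 CPM with BML-260 at 1 day against 24.3 and 25.8 with DMSO at 1 day. Its levels with DMSO were higher at 1 day than at 3 days, and the difference was 0.87 ± 0.16 (adjusted p = 0.0012). Its transcript has a GC content of 68.4%, and with the GC correction the difference was 0.56 (adjusted p = 0.0138). At 1 day its lowest library was BML-260 replicate 1 and its highest DMSO replicate 2, the libraries that stand apart in GC content. Mgst2, a microsomal glutathione transferase, belongs to the 28, with 37.6 and 37.3 CPM with BML-260 against 44.2 and 42.3 with DMSO at 3 days, and 58.9 and 64.4 CPM with BML-260 against 45.6 and 47.0 with DMSO at 1 day, a difference of -0.62 ± 0.09. Arxes2, an adipocyte gene regulated by Pparg whose close paralog Arxes1 may share its reads, had 63.3 and 53.8 CPM with BML-260 against 73.8 and 73.5 with DMSO at 3 days, and 139 and 143 CPM with BML-260 against 118 and 120.5 with DMSO at 1 day, a difference of -0.58 ± 0.09. The zinc finger genes Zfp944 (-0.68 ± 0.13) and Zfp113 (-0.60 ± 0.11) showed the same turn.

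The authors' deposited table for 1 day lists genes that differ between BML-260 and DMSO, and 259 of the 1284 genes (20.2%) are among them, which is 22.8% of that list. Of the same genes 910 (70.9%) are in the authors' deposited table for 3 days, which is 28.6% of that list. The sign of the fold change in the authors' deposited tables was the same as in the counts for all 3181 genes listed at 3 days and all 1134 listed at 1 day that were tested. Those tables hold only differing genes and come from the same libraries, and the difference is made of the same effects. The shared signs and the overlaps are therefore no separate support. In the authors' deposited table Scand1 is listed at 3 days with a log2 fold change of 0.36 and at 1 day with one of -0.36. Ddit4 (0.22 at 3 days and -0.26 at 1 day) and Arxes2 (-0.30 and 0.23) are also listed at both times. Other genes named for opposite effects are not: Lcn2, Ndufb3 and Pdk1 are listed at 3 days only, and Mgst2, Acadm and Cdc20 at 1 day only. Plk1, Zfp944, Zfp113 and Mrps35 are listed at neither time.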

How the data were processed

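The authors deposited a table of raw read counts per gene symbol for 10 libraries. Per the submitters' processing notes, DESeq2, bedtools, TopHat2 2.1.1 and bcl2fastq 2.17.1.14 were used and mm9 and mm10 are named without saying which step used which. No source used here gives the counting strand or annotation. The authors also deposited lists of differing genes with log2 fold changes and adjusted p-values, used only where they are named.

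From the counts, genes were kept by edgeR 4.0.16 (R 4.3.3) filterByExpr (minimum count 10, total 15), scaled by TMM and fitted by the quasi-likelihood test with 1 mean for each of 5 groups over 10 libraries (5 residual degrees of freedom, Benjamini-Hochberg threshold 0.05). Errors are standard errors of the log2 difference; levels are TMM-scaled CPM. 26 symbols had been turned into dates. The steps were tested on simulated counts, with 100 genes of at least 10 CPM changed at each size. Of these, 84% were recovered at a log2 change of 0.5 and 100% at 1, and 6.12% of calls were false. Smaller changes and differences in GC content between libraries were not simulated. The members and gene lists were chosen with earlier results of these data known. Genes named with levels were the 15 largest higher and lower calls with at least 10 CPM in 1 group and no overlap between times, the 6 largest of each pattern, up to 5 members of smallest p of each list and 7 fixed genes; other list members were named after their values were seen. Alternatives were DESeq2 1.42.0 size factors, upper-quartile factors, no filter, DESeq2's Wald test, limma-voom 3.58.1, the 8 libraries alone, a replicate block and leaving out each library. A GC correction and leaving out both libraries that stand apart in GC content were added after seeing the data; GC content was known for 90.2% of tested genes. Read depth was similar across libraries, and counting error is largest for genes of a few CPM. Some genes that the naming rule returned are not reported here.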

Additional observations from a re-analysis of the deposited data

Results flagged for a closer look

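The effect of BML-260 differed between 3 days and 1 day for 1284 genes by the test of the difference itself. For 13 genes that the naming rule returned the effects were also called in opposite directions. The log2 difference was 0.869 for Scand1 (0.561 with the GC correction), 0.7428 for Lcn2, 0.4915 for Ddit4, 0.4555 for Plk1 and 0.4268 for Cdc20, which were above DMSO at 3 days and below it at 1 day. It was -0.6842 for Zfp944, -0.6191 for Mgst2, -0.6023 for Zfp113, -0.5773 for Arxes2, -0.3294 for Mrps35, -0.3262 for Ndufb3, -0.3014 for Acadm and -0.283 for Pdk1, which were below DMSO at 3 days and above it at 1 day.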

How the results depend on the processing

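The count of 1284 genes was within 1.5 times under DESeq2 size factors (1355), upper-quartile factors (1277), no filter on low counts (1299), limma-voom (1283), the 8 libraries alone (1548) and the GC correction (1271). It was 721 with DESeq2's Wald test and 569 without both libraries that stand apart in GC content, where fewer libraries enter; of the 569, 484 were among the 1284. Leaving out 1 library gave 659 to 1163 calls. There were 2728 genes called for BML-260 at 1 day, 1746 with DESeq2's Wald test, 1034 without both libraries and 1235 to 2659 when 1 library was left out. The higher share was 46.6% and became 57.4% with DESeq2's Wald test, 57.9% without DMSO 3 days replicate 2, 36.8% with upper-quartile factors and 38.5% without both libraries. Deviations of same-numbered libraries from their group means correlated at -0.0344 to 0.0577. Counting error enters each deviation, so these values do not settle whether the replicate numbers pair the samples. With a replicate block 1474 genes were called, and 1487 with block and GC correction. Of 177 called genes named by the rule, 85 were called in every alternative run, and none changed sign. With 2 libraries a group, differences of genes counted at a few CPM are the least certain.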
